A study of Drosophila melanogaster with 2 samples.

Results

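The peaks described here are the 606 Araucan peaks, of 4706 on the assembled chromosome arms, whose summit lay in an intron at a short distance from a promoter. A peak qualified when its summit was inside a gene but in no exon of any transcript, was more than 500 bp from every annotated transcription start site (TSS), and was no more than 2000 bp from the nearest TSS of a protein-coding gene. The choice used position alone and no signal value. They are called proximal intronic peaks below. They came from ChIP-seq of whole Drosophila melanogaster embryos aged 0 to 24 h, in 1 group with 2 biological replicates and no second genotype, age or treatment. Every embryo carried an ara-eGFP transgene, and chromatin was precipitated through the green fluorescent protein, so the peaks are those of a tagged protein in a mixture of all stages and cell types, and binding in few cells cannot be told apart from weak binding in many. No read counts were given, so the depth behind each value is unknown.

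Araucan is one of the related homeodomain transcription factors of the Iroquois complex, with Caupolican and Mirror, and acts in patterning of the notum, wing veins, eye and nervous system. Iroquois proteins belong to the TALE class of homeodomain proteins and are known for binding a palindrome, ACANNTGT, whose arms end in ACA. Introns near promoters, the first intron above all, are a common place for enhancers in compact insect genomes. No proximal intronic peak lay in or nearest to ara, caup or mirr themselves.

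The sequences at the summits show the AT-rich stretches on which most of the strongest proximal intronic peaks were centred, with exceptions at mub and Tre1. Each is the stretch of dm6 from 50 bp before to 50 bp after the summit, read from the plus strand, with TAACA or TGTTA and ACANNTGT in capitals. The first 6 are the strongest of these peaks on the arms from which sequence is shown, and Mad and Tre1 follow because, with LPCAT, they are the 3 strongest with the Iroquois palindrome. Names are those of the gene with the nearest TSS.
CG11050 (chr2L:6612663-6612763): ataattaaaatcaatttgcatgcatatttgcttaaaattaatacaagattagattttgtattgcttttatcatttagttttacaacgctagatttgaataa
CG32772 (chrX:4910316-4910416): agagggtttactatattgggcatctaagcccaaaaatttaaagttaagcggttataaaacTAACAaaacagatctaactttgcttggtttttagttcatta
LPCAT (chrX:9579252-9579352): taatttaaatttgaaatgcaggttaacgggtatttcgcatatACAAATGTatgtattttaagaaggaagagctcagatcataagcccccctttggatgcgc
mub (chr3L:21880445-21880545): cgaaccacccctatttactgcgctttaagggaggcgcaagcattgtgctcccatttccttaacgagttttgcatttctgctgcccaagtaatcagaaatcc
Trl (chr3L:14759464-14759564): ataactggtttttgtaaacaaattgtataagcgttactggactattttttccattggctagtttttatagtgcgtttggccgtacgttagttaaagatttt
CG9663 (chr2L:3302335-3302435): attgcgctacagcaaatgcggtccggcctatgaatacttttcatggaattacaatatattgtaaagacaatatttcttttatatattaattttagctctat
Mad (chr2L:3153353-3153453): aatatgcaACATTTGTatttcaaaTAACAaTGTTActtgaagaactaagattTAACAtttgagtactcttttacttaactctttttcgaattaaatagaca
Tre1 (chrX:5678004-5678104): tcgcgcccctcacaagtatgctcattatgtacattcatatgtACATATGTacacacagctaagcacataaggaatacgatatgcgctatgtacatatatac

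The GC content of these windows was lowest at CG11050, with 20.8%, and highest at mub, with 47.5%. At Tre1 it was 38.6%, the same as the median of windows over all intron that met the rule. The window at Mad held 1 palindrome and 3 single sites, whereas the windows at CG11050, mub, Trl and CG9663 held neither motif.

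The strongest proximal intronic peak lay in a 140-bp second intron of CG11050, 1026 bp downstream of its nearest TSS (2L, summit 6612713). Its signal, the authors' own value per peak, was 1640 in the conservative list, 648 in replicate 1 and 978 in replicate 2. The peak in the first intron of CG32772 (X, summit 4910366) had a signal of 1161, with 450 in replicate 1 and 696 in replicate 2. These were the only 2 of the 606 with a signal of 1000 or more, and 21 had 500 or more. LPCAT, named for a lysophosphatidylcholine acyltransferase, followed with 937, and with 376 and 557 in the replicates.

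Among the 20 strongest were peaks beside several regulators of transcription and chromatin. HmgZ, which encodes an HMG-box chromatin protein, had a peak of signal 895 (2R, summit 21703403) that lay 573 bp upstream of its TSS, inside introns of both HmgZ and its neighbour HmgD. Adf1, a DNA-binding activator first described at the Adh promoter, had 858 (2R, summit 6663068). Trl, which encodes the GAGA factor, had 811 at 1535 bp downstream, in addition to a promoter peak of 272. NFAT, a Rel-like transcription factor, had 648 (X, summit 13640513). The peak at edl, a regulator of ETS factors, had 617 (2R, summit 18671728).

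Others of the 20 lay beside genes of cell structure and signalling. The peak at cno, which encodes the junction protein Canoe, had a signal of 722 (3R, summit 5215535), in a first intron of 13498 bp. The peak at mub, an RNA-binding protein gene, had 816 and stood 39170 bp from the next summit. Mad, the transcription factor of the Dpp pathway, had 518, with 186 in replicate 1 and 321 in replicate 2. The peak at brat, a translational repressor and brain tumour suppressor, had 538 (2L, summit 19165163). ImpL2, whose product binds insulin-like peptides, had 537 (3L, summit 4228371), and norpA, the phospholipase C of phototransduction, had 513 (X, summit 4324987). A further 5 of the 20 were nearest to CG9663 (742), chif (706), CG3726 (630), Reph (575) and CG9837 (522). All 20 were in both replicates' own thresholded lists, 18 were in a first intron, and the nearest gene held the summit in all 20. The nearest gene also had a promoter peak in 8 of them.

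The 606 peaks belonged to 494 coding genes by nearest TSS. Of these genes 408 had 1 such peak, 68 had 2 and 18 had 3 or more. The most, 5 each, were at shn and at CHES-1-like. At shn, a zinc-finger factor that acts in Dpp signalling, the signals ran from 85.6 to 356, and 3 of the 5 peaks were listed in both replicates. At CHES-1-like, a forkhead gene, they ran from 48.1 to 250, again with 3 of 5 in both. Genes with 4 were CG10543 (57.5 to 173), Doa, which encodes a LAMMER kinase (63.0 to 233), NFAT (72.8 to 648) and Tlk, the Tousled-like kinase (49.1 to 137). At Inx3, a gap junction gene, none of the 3 peaks was listed in both replicates, and the signals ran from 7.43 to 76.8. The weakest summit at Inx3, and that at OtopLa (7.58), each lay close to a stronger one. The other genes with 3 were C3G, CG13917, CG9837, Diap1, OtopLa, SNF4Agamma, Shrm, dlg1, pnt, px and tou, and their highest signals ran from 76.4 at dlg1 to 522 at CG9837. These genes had 2698 bp (CG9837) to 18174 bp (SNF4Agamma) of intron that met the rule.

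The proximal intronic peaks were in both replicates' thresholded lists about as often as promoter peaks. In all, 296 of 606 (48.8%, 95% interval 44.8 to 52.9, exact binomial) overlapped the thresholded lists of both replicates, against 44.9% of all conservative peaks. The share was 50% for peaks within 500 bp of a TSS and 42.9% for intronic peaks 2 to 10 kb from a coding TSS. A further 161 (26.6%) were in the list of replicate 2 only, 19 (3.14%) in that of replicate 1 only and 130 (21.5%) in neither. The list of replicate 1 was the shorter, with 2396 peaks on the arms against 4132.

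Over the 571 proximal intronic peaks found in both replicates' full ranked lists, the signal was higher in replicate 2 in 468. The median ratio of replicate 2 to replicate 1 was 1.32, against 1.31 over all conservative peaks. The median was 45.2 in replicate 1 (n = 578) and 61.2 in replicate 2 (n = 585). The sources used here do not give the scaling of the 2 lists, so the ratio describes the lists and no difference between the embryos.

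**Figure D1:**
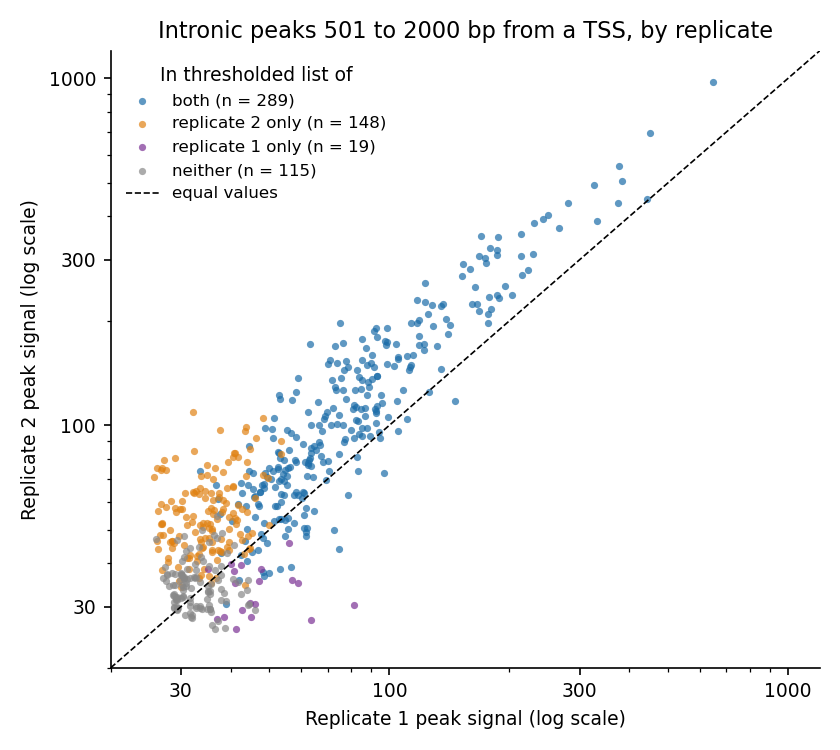
Signal of the 571 proximal intronic peaks found in both ranked lists, in replicate 1 (horizontal, log scale) and replicate 2 (vertical, log scale), coloured by the thresholded lists that hold the peak; the dashed line marks equal values. Most points (468) lie above the line, and the peaks of neither list crowd the low end of both axes.

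The signal of the 606 peaks ran from 3.39 to 1640, with quartiles of 73.0 and 172 and a median of 101.1 (95% interval 96.2 to 108, from order statistics). The median was 96.2 over all conservative peaks, 97.3 for intronic peaks 2 to 10 kb out and 102 for promoter peaks. The middle of the distribution thus differed little between these classes. The upper end differed more. Of the proximal intronic peaks 73 (12.1%, 9.56 to 14.9) were in the strongest 10% of all peaks, against 7.58% (5.86 to 9.61) of intronic peaks farther out and 13.5% of promoter peaks. The intervals of the intronic classes overlapped slightly, and that of the proximal intronic peaks held 10%. Peaks in both replicates' lists had a median signal of 175, and the others had 74.0.

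A group of very weak peaks had stronger neighbours. A limit of 21, chosen after the values were seen, left 19 of the 606 below it, and each of the 19 had a stronger summit 199 to 263 bp away, with a signal between 58 and 212. Over all conservative peaks 161 were below the limit, and 160 of them had another summit within 324 bp, the commonest width of a peak. Of all proximal intronic peaks 49 had another summit within that reach. The peaks nearest to the inner limit were at t-cup (signal 87.7) and CG9083 (58.8), and those just outside it, at 500 bp, were at ph-p (1832) and aru (370). At the outer limit of 2000 bp, CHES-1-like (141) and be (118) lay inside, and FucTD (246) and CG12290 (255) outside.

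Introns close to a TSS held more summits for their length than introns farther away. The 606 summits fell in 10.1 Mb of intron that met the rule, which gave 60.0 per Mb (95% Poisson interval 55.3 to 65.0). Introns 2 to 10 kb from a coding TSS had 36.0 (33.6 to 38.6), introns beyond 10 kb had 17.5 (15.7 to 19.5), and sequence within 500 bp of a TSS had 104 (98.9 to 108). Over the whole arms the density was 35.2 per Mb. These intervals cover counting error only and treat summits as separate, although 168 of the 606 (27.7%) had another summit within 1000 bp, against 22.4% of all peaks.

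Within the proximal introns the density was 78.6 per Mb (66.8 to 92.0) from 500 to 750 bp. It was 61.8, 61.9, 48.5, 50.6 and 52.2 in the following steps of 250 bp, and the intervals of neighbouring steps overlapped. The median signal in the 6 steps lay between 93.6 and 117 with no order by distance. Upstream and downstream of the nearest TSS the density was 64.8 (56.5 to 74.0) and 57.6 (52.04 to 63.6), which overlapped. Upstream positions can be intronic because of an alternative TSS of the same gene, as in 176 of the 217 upstream peaks, or because the gene lies beside or within an intron of another, as in 41.

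First introns held most of the peaks. Of the 606, 498 (82.2%, 78.9 to 85.1) were in the first intron of at least 1 transcript, whereas first introns made up 66.6% of the sequence that met the rule. The density was 74.1 per Mb (67.7 to 80.9) there and 32.0 (26.2 to 38.6) in later introns. It was higher in first introns in each of the 6 distance steps, for example 91.6 against 43.3 per Mb from 500 to 750 bp and 65.4 against 32.3 from 1750 to 2000 bp. A split by intron length, chosen after the values were seen, changed the size of the gap. In introns of up to 2 kb the density was 66.3 (55.03 to 79.2) in first and 13.2 (8.19 to 20.2) in later introns, and in those of 2 to 10 kb it was 82.8 (73.1 to 93.5) and 44.4 (30.5 to 62.3). In introns over 10 kb it was 66.2 (54.7 to 79.5) and 51.7 (38.9 to 67.5), and these intervals overlapped. Introns with a peak ran from 51 to 73902 bp. The median signal was 103 (96.9 to 110) in first introns and 95 (78.1 to 113) in later ones.

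**Figure D2:**
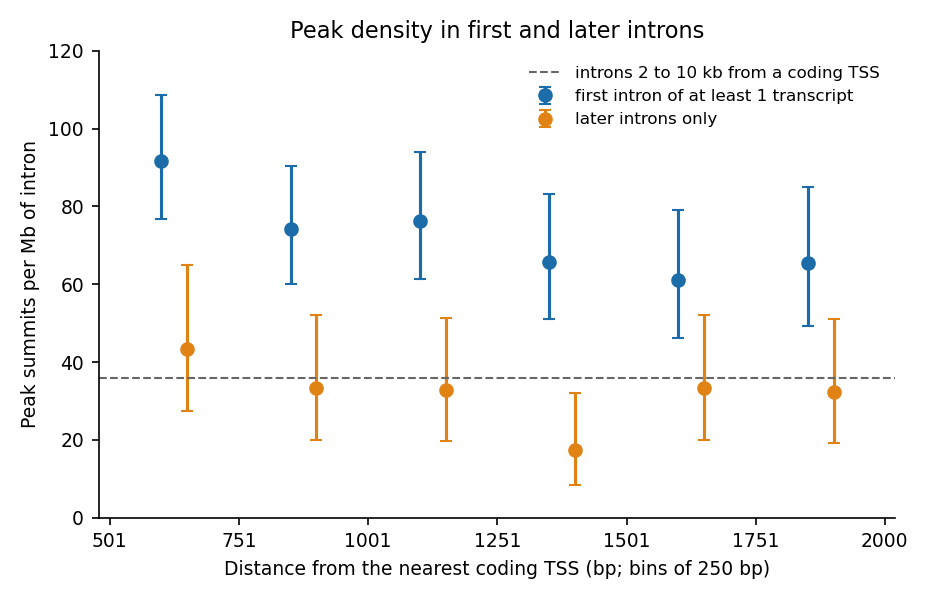
Summits per Mb of intron that met the rule (vertical) in 6 steps of 250 bp from the nearest coding TSS (horizontal), for first introns and later introns, with 95% Poisson intervals; the dashed line is the density of introns 2 to 10 kb out, 36.0 per Mb. First introns lie above later introns in every step, and later introns lie near the dashed line or below it.

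The 5 large arms differed little. The density ran from 50.4 per Mb (40.5 to 61.9) on 2L to 64.1 on 3L and 3R, and the X, with 64.0, lay within that range. The small arm 4 had no such peak in 0.115 Mb of sequence. A count of 0 allows up to 26.04 per Mb by the limit of 3 counts, and the exact 95% interval ends at 32.0, below the interval of each other arm.

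Genes with a proximal intronic peak also had a promoter peak more often than other genes. Of the 494 genes, 191 (38.7%, 34.4 to 43.1) had a summit within 500 bp of one of their own TSSs, against 16.3% of the 10036 coding genes with any sequence that met the rule and 15.1% (14.4 to 15.8) of the 9542 such genes without a proximal intronic peak. Genes with more intron and more TSSs have more room for either kind of peak. Among genes with over 2000 bp of such intron the share was 44.7% (38.7 to 50.9) with a proximal intronic peak and 18.5% (16.2 to 21.1) without. Among genes with 1 annotated TSS it was 28.2% (20.9 to 36.3) and 11.4% (10.7 to 12.2), and with 4 or more TSSs it was 57.3% (47.5 to 66.7) and 36.2% (31.0 to 41.8). Both splits were chosen after the values were seen, and the intervals did not overlap in all 3 classes of TSS number and in 3 of the 4 classes of intron length. In the exception, genes with up to 500 bp of such intron, the shares were 28.6% (11.3 to 52.2) of 21 genes and 14.9% (14.0 to 15.9).

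The stronger of the pair was the intronic peak in some cases and the promoter peak in others, with neither order clearly the commoner. The intronic peak exceeded the strongest promoter peak of its gene in 115 of 242 cases (47.5%, 41.1 to 54.02). The interval treats the cases as separate, although they came from 191 genes. Each intronic peak was set against the strongest promoter peak only, an uneven pairing where a gene had several. Among the genes of the strongest proximal intronic peaks, the intronic signal at CG11050 was 1640 and the promoter signal 122. At LPCAT they were 937 and 153, and at Trl 811 and 272. The opposite order was seen at ph-p, the Polycomb group gene polyhomeotic proximal, where an intronic peak of 147 lay 1279 bp downstream and the peak 500 bp from a TSS had 1832. Proximal intronic peaks beside a promoter peak had a median signal of 108 (100.99 to 119), and the others had 96.9 (92.7 to 103).

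**Figure D3:**
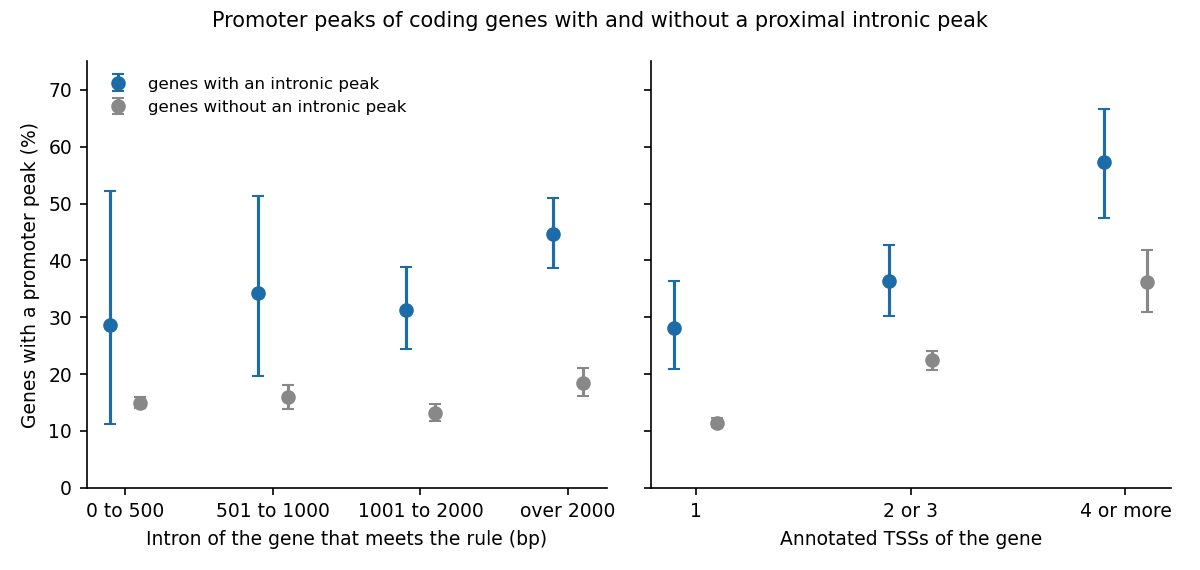
Share of coding genes with a promoter peak (vertical, %) for genes with and without a proximal intronic peak, by the amount of intron that met the rule (left) and by the number of annotated TSSs (right), with exact 95% intervals. Genes with a proximal intronic peak lie higher in every class, for example 28.2% against 11.4% with 1 TSS; only in the class of least intron do the intervals overlap.

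For 549 of the 606 peaks (90.6%) the gene with the nearest TSS was also a gene that held the summit. The other 57 lay in an intron of one gene but closest to the TSS of another. The strongest of them was nearest to mlt, in an intron of the potassium channel gene KCNQ, with a signal of 441. The next was nearest to mars and inside drk, the adaptor of receptor kinase signalling, with 389. Both were listed in both replicates. More than 1 gene held the summit in 54 of the 606.

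The base composition at the summits changed with the signal. The median GC content of these windows, 50 bp to either side of the summit, was 33.7% (32.7 to 34.7), against 38.6% in 86481 windows of the same length laid end to end over all intron that met the rule. Other Araucan peaks were similar, with 34.2% at intronic peaks 2 to 10 kb out, 35.6% at promoter peaks and 34.7% over all conservative peaks. In 4 classes of the proximal intronic peaks, of equal size by signal, the median was, from the weakest to the strongest, 41.6%, 33.7%, 32.7% and 29.7%. The dip was narrow. In the strongest class the mean GC content was 29.6% at the summit, 41.6% at 400 bp to the left and 41.4% at 400 bp to the right. The weakest class showed no dip of that size, with 41.9% at the summit and 40.9% and 39.8% at those distances. It had 40.2% at 40 bp to the left, between 44.2% at 120 bp to the left and 44.0% at 100 bp to the right. Only 9 of the 152 peaks of the weakest class (5.92%) were listed in both replicates, whereas all 152 of the strongest were. Whether base composition affected the reads themselves was not tested.

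**Figure D4:**
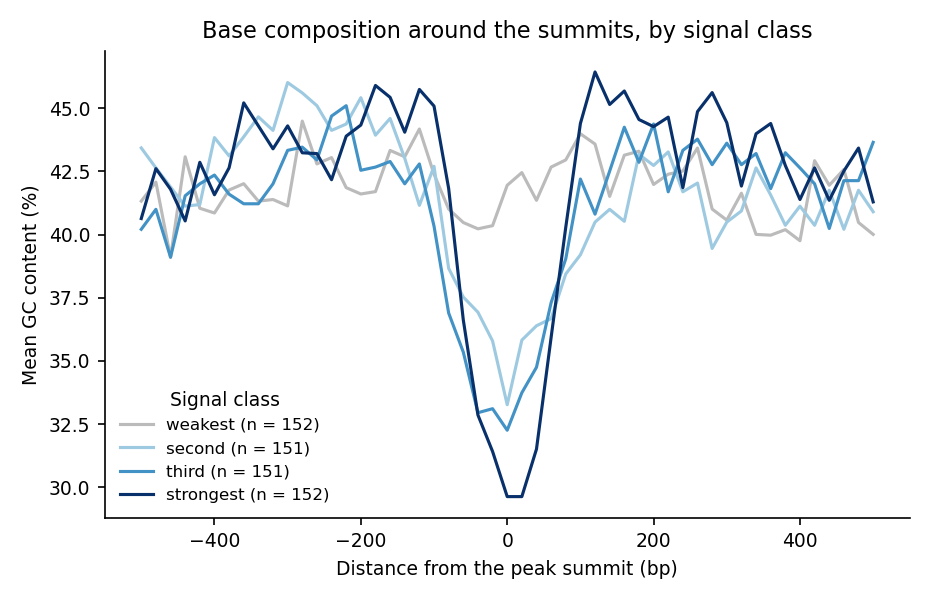
Mean GC content in 21-bp windows (vertical, %) by distance from the summit (horizontal, bp) for 4 classes of the 606 peaks by signal, of 151 or 152 peaks each. The strongest class falls to 29.6% at the summit from 41.6% at 400 bp to the left, and the weakest is at 41.9% at the summit.

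The Iroquois palindrome was found in few of the windows. ACANNTGT, searched on both strands and its own reverse complement, was in 41 of 606 (6.77%, 4.90 to 9.07). It was in 4.66% of the windows over all such intron and in 4.74% once these were weighted to the GC content of the peaks, both just below the interval. It was in 5.50% of windows at intronic peaks 2 to 10 kb out and in 4.47% at promoter peaks. The control palindrome ACTNNAGT was in 7 windows, or 1.16% (0.466 to 2.37), against 2.20% over all such intron. At intronic peaks 2 to 10 kb out it was in 3.67% and at promoter peaks in 2.66%, so its low share was not shared by other peaks. Away from the summit the palindrome's share was similar at 100 bp (6.27% and 7.10% on the left and right) and was 3.47% and 4.46% at 400 bp, with intervals that overlapped that of the summit.

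The commonest forms of the palindrome, counted with their reverse complements, were ACAAATGT in 14 windows, ACATATGT in 9 and ACAATTGT in 7. In the windows over all such intron these were in 1.03%, 1.11% and 0.36%, against 2.31%, 1.49% and 1.16% of the peaks. The 41 peaks with a palindrome had a median signal of 106, and the others had 100.9. By signal class the share was 7.89%, 3.31%, 7.95% and 7.89% from the weakest to the strongest, which shows no order. After LPCAT (937), Mad (518) and Tre1 (427), whose windows are printed above, came Src64B (323), a Src kinase gene, and Mekk1 (318), a gene of stress kinase signalling.

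The single site TAACA, one arm of the Iroquois site, was in 154 windows (25.4%, 21.99 to 29.1), against 20.4% over all such intron and 23.5% at equal GC content. Its letters in another order, TACAA, gave 28.1% (24.5 to 31.8), against 23.5% and 27.3%. Both lay above the intron at large, and for both the interval held the value at equal GC content. By signal class TAACA was in 16.4%, 19.9%, 33.1% and 32.2% of windows from the weakest to the strongest, and TACAA in 14.5%, 31.1%, 31.8% and 34.9%, while GC content fell.

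Motifs known from promoters of broadly expressed genes were not found. The DREF site TATCGATA was in 0 of 606 windows, which allows a share of up to 0.495% by the limit of 3 counts and 0.607% by the exact 95% interval. It was in 0.219% of windows over all such intron and 2.13% at promoter peaks. GGTCACACT, the site of M1BP, was also in 0 of 606, against 0.05% and 0.852%. The homeodomain core TAATTA was in 8.91% (6.76 to 11.5), against 10.3% at equal GC content. The GATA sites AGATAA and TGATAA were in 9.08% and 10.1%, against 8.25% and 9.56%. GAGAG, the core of the GAGA factor site, was in 12.9% (10.3 to 15.8), against 9.36% at equal GC content and 11.3% over all such intron, which the interval held. A match is a description of letters in the window and not evidence of a bound site.

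By groups of nearest genes, the density lay above that of all genes for genes of Dpp and activin signalling, chromatin, receptor kinase signalling and the cytoskeleton. Overall 494 of 10036 genes (4.92%) had a proximal intronic peak, at 60.0 per Mb. The 19 groups compared hold 848 genes, and 99 of these genes had 125 of the peaks. In these 4 groups the 95% interval lay above 60.0 per Mb. Summits of 1 gene are not independent, so the value without the gene with most peaks is given beside each.

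Among genes of Dpp and activin signalling, 6 of 25 had 12 peaks, at 239 per Mb (123 to 417). They included the receptor genes tkv, put and wit, the transducer Mad, and the nuclear factors shn and brk. The strongest were at Mad (518), shn (356) and wit (230). Without the 5 peaks of shn the density was 187 per Mb (75.1 to 385).

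In the group of EGFR, FGF and other receptor kinase signalling, 9 of 32 genes had 11 peaks, at 154 per Mb (76.8 to 275), and 133 (60.8 to 253) without sty. The insulin receptor gene InR had the strongest, with a signal of 447. The FGF ligand gene ths had 215, and sty, the inhibitor sprouty, had 156. The other genes were the ligand gene Pvf3 and its receptor gene Pvr, the EGFR antagonist aos, the kinase gene Dsor1, the phosphatase gene Mkp3 and the FGF adaptor stumps. Of the 11 peaks 4 were listed in both replicates.

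Of the genes of the cytoskeleton and its regulators, 14 of 57 had 16 peaks, at 118 per Mb (67.4 to 192). The median signal of these was 183, above the upper quartile of the 606, and 11 of the 16 were listed in both replicates. The dynein heavy chain gene Dhc64C had 476, with 167 in replicate 1 and 308 in replicate 2. Moe, which encodes moesin, had 396, and mbc, a Rac activator of myoblast fusion, had 306. Without the gene with most peaks, which had 2, the density was 108 (59.1 to 181), so that the interval then held 60.0.

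Of the Polycomb, trithorax and chromatin genes, 6 of 52 had 10 peaks, at 176 per Mb (84.6 to 325). Their share of genes with a peak was 11.5% (4.35 to 23.4), an interval that held the 4.92% of all genes. The strongest were at JIL-1, a histone H3 kinase gene (218), tna (174) and ph-p (147). Without the 4 peaks of Tlk the density was 154 (56.4 to 334), and that interval also held 60.0.

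Genes of RNA binding and splicing stood at 88.5 per Mb (49.5 to 146), with 13 of 47 genes. They included brat (538), larp (218) and the neuronal gene elav (168). Wnt genes had 143 (52.4 to 311), with peaks at Wnt5 (188, inside Ggt-1), the receptor gene fz3 (101.2) and the kinase gene sgg (72.5). Genes of planar polarity and Fat/Hippo signalling had 131 (42.4 to 305), the strongest at crb (220), which sets apical polarity. Genes of lipid, sterol and sugar metabolism had 116 (46.7 to 239), with the lipase gene bmm (267) and Gdh (240) strongest. Matrix and integrin genes had 81.3 (22.2 to 208), the strongest at the laminin gene LanA (171). The density intervals of these 5 groups all held 60.0 per Mb. Their shares of genes with a peak had intervals above the 4.92% of all genes, as in 9 of the 19 groups, and the genes of those 9 groups had on average 1546 to 3607 bp of intron that met the rule, against 1006 bp over all genes.

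In 5 further groups with 1 or 2 peaks the intervals were wide and held 60.0. JAK/STAT signalling, the highest of all groups at 280 per Mb (33.9 to 1010), had only Stat92E (193) and Socs36E (73.3), Hedgehog signalling had boi (242) and rdx (202), and Notch signalling had neur (229) and gro (65.0). Cell cycle genes had trbl (129) and CycE (92.2), and genes of ribosomal proteins and translation had RpL41 alone (61.3, inside NaCP60E).

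Developmental transcription factors other than homeodomain genes had 61.3 per Mb (35.05 to 99.6), in 11 of 88 genes, led by Trl, the GATA cofactor ush (262) and the hypoxia factor sima (243). Muscle genes had 62.4 (17.0 to 160), with mbc, Msp300 (278) and rols (265). Ion channel and synaptic genes had 44.3 (17.8 to 91.4), with Irk1 (301) highest. The lowest densities were those of axon guidance and cell adhesion genes, 22.2 (4.57 to 64.8), with 3 of 63 genes, and of homeodomain genes, 17.5 (2.12 to 63.3), with 2 of 64. The 2 homeodomain genes were Abd-B (93.6) and pdm2 (77.1). Both intervals reached 60.0, so neither group is shown to lie below all genes.

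**Figure D5:**
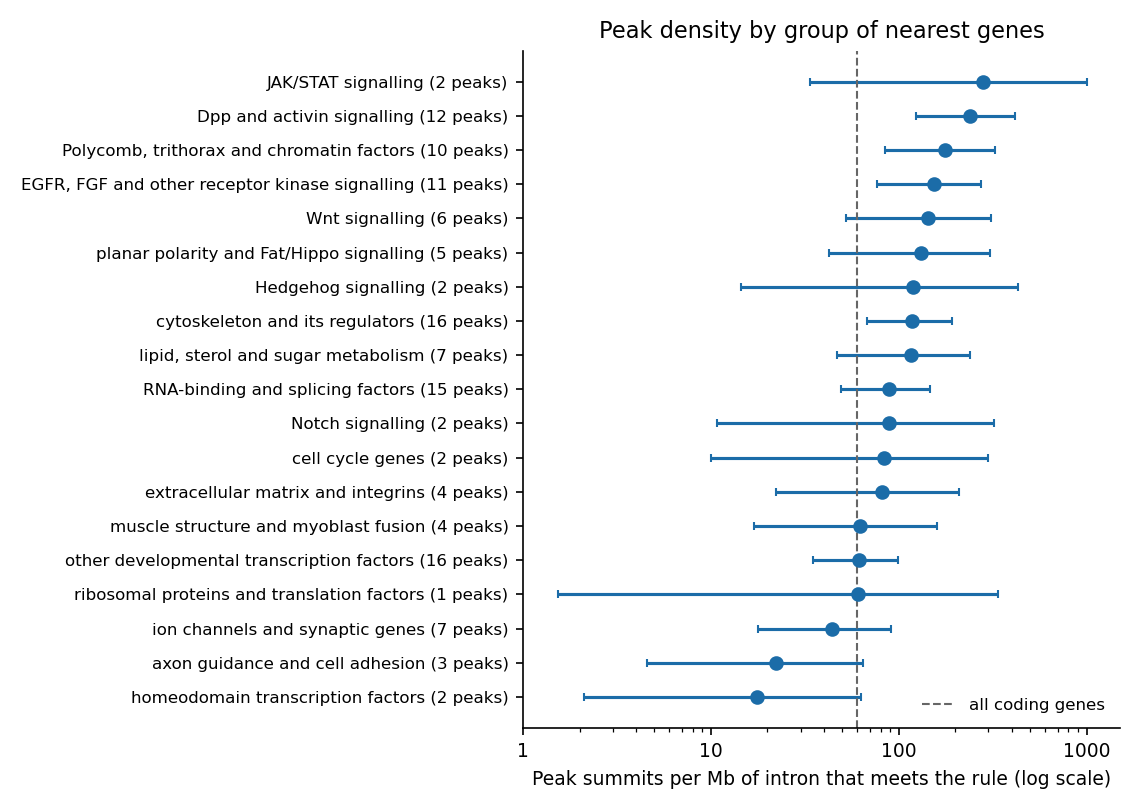
Summits of proximal intronic peaks per Mb of intron that met the rule (horizontal, log scale) for 19 groups of nearest genes, with the number of peaks and 95% Poisson intervals; the dashed line is the density over all coding genes, 60.0 per Mb. The intervals of 4 groups, Dpp and activin, chromatin, receptor kinase and cytoskeleton genes, lie above the line.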

How the data were processed

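Peak lists from 2 biological replicates of ara-eGFP embryos aged 0 to 24 h were used, on dm6, with chromatin sonicated to 200 to 800 bp, per the labels. The signal in each list is the authors' deposited value per peak. The sources used here do not give its normalization, the aligner, the peak caller or the depth. Control libraries and the series-wide ranked lists, whose replicate columns carry no sample name, were not analysed here. The conservative list held 4716 peaks, 4706 on the arms. Genes and TSSs came from Ensembl release 115 (BDGP6.54, whose arm lengths equal those of dm6), without transposable elements, and sequence from the RefSeq genome of the same build. Densities used all intron that met the rule. A replicate listed a peak when its thresholded list overlapped it by at least 1 bp, and its value was that of the nearest summit within 150 bp in its ranked list, which for weak peaks may be a neighbour. Intron length was that of the shortest intron holding the summit. GC weighting used bins of 5 points. This weighting, the 4 signal classes and the split of first and later introns by distance were chosen after values were seen. Shares have exact binomial (Clopper-Pearson) and densities exact Poisson intervals at 95%, which cover counting error only. With 1 group no test was made.

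The peaks, gene lists and motifs were chosen with earlier results of these data known, and 7 gene symbols were respelled and 8 wrong or repeated entries removed after list values had been seen. Named genes are those nearest to the 20 strongest peaks, those with 3 or more peaks, up to 3 genes per list with the strongest peaks, ara, caup and mirr, and the peaks nearest to each limit; 1 gene so chosen is not reported here. Genes nearest to peaks with a palindrome, inside another gene or listed as further members of a group were named after their values were seen. The counting was tested on simulated data, where 180 of 180 planted summits were classified as planted. The software was Python 3.11.15, scipy 1.17.1, numpy 2.4.6, matplotlib 3.10.9 and pandas 2.3.3.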

Additional observations from a re-analysis of the deposited data

How the results depend on the processing

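Of 56 recomputed values, 38 were kept and 18 moved: a number of peaks was kept within 1.5 times the main number, and any other value within the 95% interval of the main one, which is the narrower limit. The share in a first intron was kept under every alternative run. In the other thresholded list the density was 68.2 per Mb and the median signal 93.6. Leaving out 1 replicate, with the other's own list in use, gave 316 to 562 peaks, 31.3 to 55.6 per Mb, a median signal of 64.3 to 70.3 on that list's scale and a promoter peak at the nearest gene in 26.6% to 39.7%. The stronger peaks alone gave 326 peaks, 32.3 per Mb, a median signal of 158, 83.1% in both replicates, a promoter peak in 26.7%, TAACA in 32.8% and a GC content of 31.7%. Shorter lists also hold fewer promoter peaks: genes without a proximal intronic peak then had one in 9.24% (stronger peaks) and 9.13% (without replicate 2), against 26.8% and 26.5% of genes with one. An inner limit of over 1000 bp gave 334 peaks and 53.5 per Mb. Windows of 100 bp to either side of the summit held TAACA in 42.6% and had a GC content of 36.3%. Merging overlapping peaks, added after seeing the data, changed no value beyond these limits. No paired analysis was possible because the study has a single group.

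With 2 replicates and no depths, no value has a replicate-based error, and a peak missing from a list is not shown to be unbound. Most weak peaks were outside the thresholded list of at least 1 replicate: 9 of the 152 in the weakest class were in both. A ranked-list summit within 150 bp was found in both replicates for 571 of the 606.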
